A study of Homo sapiens with 6 samples.

Results

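The genes described here encode 10 proteins that bind N6-methyladenosine (m6A) in RNA, or that bind RNA whose folding the mark has opened: YTHDF1, YTHDF2, YTHDF3, YTHDC1, YTHDC2, IGF2BP2, IGF2BP3, FMR1, HNRNPA2B1 and HNRNPC. They were taken by gene symbol, and each matched 1 of the 61860 gene rows of the deposited tables. The cells were 786-O, a long-used human clear cell kidney cancer line that lacks functional VHL, and their total RNA was sequenced after ribosomal RNA had been removed. Of the 6 libraries, 3 were from cells stably expressing a control short hairpin RNA (shRNA) and 3 from cells stably expressing an shRNA against METTL3. The labels name no second METTL3 shRNA and do not say whether the stable cells were a clone or a pool. Nor do they tell whether replicate libraries are separate cultures, and p-values therefore reflect library-to-library spread that could be technical.

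METTL3 is the enzyme that places m6A on new mRNA, and reader proteins carry out what the mark does. YTH domain proteins hold the methylated base in an aromatic pocket: the YTHDF proteins act in the cytoplasm, mainly on mRNA decay, YTHDC1 acts in the nucleus on splicing and export, and YTHDC2 is an RNA helicase best known from germ cells. IGF2BP proteins bind through KH domains and stabilise their targets, FMR1 (FMRP) is a translational regulator lost in fragile X syndrome, and the nuclear proteins HNRNPA2B1 and HNRNPC act in splicing and RNA processing.

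Because several readers are close paralogs, the most alike stretch of coding sequence is shown for the YTHDF1 and YTHDF2 pair and for the IGF2BP pair, since it bears on how far sequencing reads can tell them apart. Each stretch is 90 bases long, lies in 1 coding exon, is printed 5′ to 3′ on the gene's strand from GENCODE 29 on GRCh38, and has in capitals the bases that differ from its partner. The YTHDF1 stretch lies at chr20:63202719-63202808 on the minus strand and the YTHDF2 stretch at chr1:28743465-28743554 on the plus strand, and 77 of the 90 bases are identical (85.6%).
YTHDF1: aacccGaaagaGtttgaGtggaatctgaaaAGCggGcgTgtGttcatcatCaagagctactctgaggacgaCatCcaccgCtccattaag
YTHDF2: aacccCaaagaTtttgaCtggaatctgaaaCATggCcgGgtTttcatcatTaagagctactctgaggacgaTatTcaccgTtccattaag
The IGF2BP2 stretch lies at chr3:185689360-185689449 and the IGF2BP3 stretch at chr7:23351310-23351399, both on the minus strand, and 71 of 90 bases are identical (78.9%).
IGF2BP2: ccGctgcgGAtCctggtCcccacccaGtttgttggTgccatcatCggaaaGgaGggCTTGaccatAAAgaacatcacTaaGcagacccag
IGF2BP3: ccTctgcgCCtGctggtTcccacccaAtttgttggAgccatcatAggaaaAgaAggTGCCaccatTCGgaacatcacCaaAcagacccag
The longest run shared letter by letter by the whole coding sequences was 20 bases for YTHDF1 and YTHDF2, 17 bases for YTHDF3 with either of them and 14 bases for IGF2BP2 and IGF2BP3. No window of 150 bases, the length of 1 read, was shared exactly between the chosen transcript of 9 of the members and an annotated transcript of any other gene. The exception was HNRNPC, with 5 of 1565 windows (0.319%), shared with its pseudogene HNRNPCP2. In windows of 50 bases the shared part was 27.6% for HNRNPC, which has 9 annotated pseudogenes by symbol, 12.2% for YTHDF2, 9.47% for IGF2BP3, 8.55% for IGF2BP2 and 0 for the other 6. The pseudogenes themselves took few counts: HNRNPCP2 had 67 to 101 counts in a library against 63996 to 77546 for HNRNPC, and YTHDF2P1 had 1 to 9 against 8506 to 12061 for YTHDF2. Counts of HNRNPCL1 and HNRNPCL2, and of the genes sharing such windows with IGF2BP2 or IGF2BP3, were not examined. Low counts of a pseudogene do not tell whether shared reads were left out of its parent.

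Libraries held 100534896 to 103624456 counts, and the deposited counts were compared as CPM, counts scaled to a common library total, after TMM scaling, which corrects that total for composition. METTL3 itself had 37.2, 38.1 and 37.6 CPM in the controls (libraries A, B and C in this order here and in what follows) and 11.3, 9.84 and 11.4 CPM in the METTL3 shRNA libraries, so every library assigned to the METTL3 shRNA group was the lower one. Its log2 fold change was −1.80 (SE 0.08; adjusted p = 1.45e-07 by edgeR's quasi-likelihood test). METTL3 exons overlap those of TOX4 on the other strand, and the sources used here do not state whether counting used strand. The cells are labelled epithelial. Of 11 renal markers, KRT8, KRT18, PAX8, PAX2, VIM, CA12 and CDH2 averaged 38.5 CPM or more in both groups, whereas CDH1 and LRP2 had at most 11 and 4 counts in a library and EPCAM averaged 0.522 CPM in the controls. PAX8, VIM and CA12 rose (log2 fold changes 0.32, 1.02 and 1.41) and CUBN fell (−0.68). Of the markers of other cell types, endothelial PECAM1, CDH5 and VWF, leukocyte PTPRC and CD3E and fibroblast COL3A1 and DCN had at most 5 counts, while CD68 rose from 53.5 to 104 CPM, PDGFRB fell from 2.15 to 0.929 CPM, and COL1A1 did not pass (−0.45). The part of these marker changes in the values of the readers was not tested.

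In the METTL3 shRNA libraries, 5 of the 10 readers fell, 2 rose and 3 did not pass the test. YTHDF2, YTHDC1, YTHDC2, FMR1 and HNRNPA2B1 fell by 17.5% to 21.4%. IGF2BP2 rose by 35.8% and IGF2BP3 by 19.7%, while YTHDF1, YTHDF3 and HNRNPC did not pass. Without METTL3 shRNA library B, 3 fell, since YTHDC1 and YTHDC2 no longer passed, and 1 rose. The number higher was 1 in every fit without 1 library, except that it was 2 without METTL3 shRNA library C. All 10 members passed the filter on low counts. Across the table, 33.5% of the 18740 genes tested were called at an adjusted p under 0.05, 16.9% lower and 16.5% higher. Among the 7214 genes that average at least 20 CPM, a level that all 10 members exceed and that was set after their values were seen, 39.6% were called, 21.4% lower and 18.2% higher. The median log2 fold change was −0.26 over the 10 readers, −0.0030 over all genes tested and −0.03 over the genes of at least 20 CPM. In bulk RNA, fewer cells expressing a gene and less RNA of it per cell cannot be told apart.

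**Figure D1:**
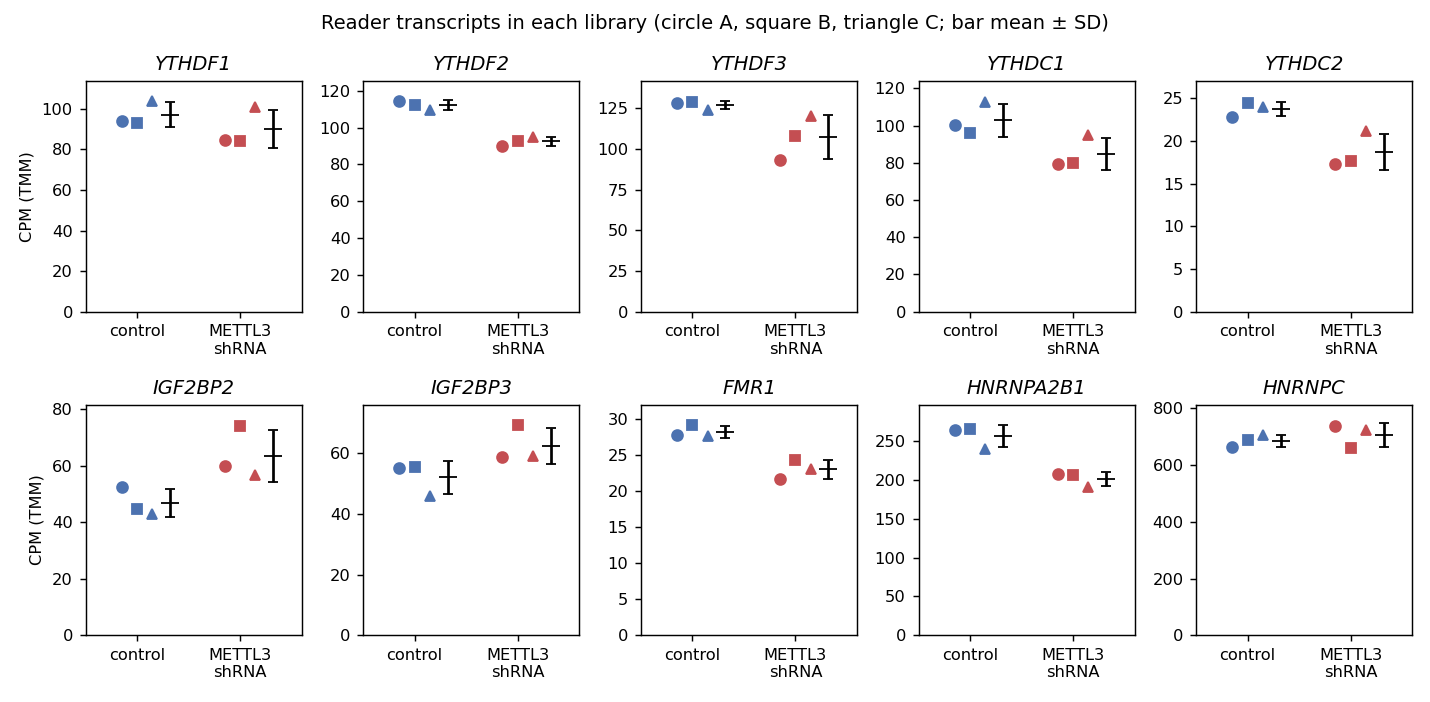
CPM (TMM-scaled) of each reader on axes that start at 0, with control libraries in blue, METTL3 shRNA libraries in red, the libraries A, B and C as circle, square and triangle and the mean ± SD (n = 3) in black. The groups are separate for every gene but YTHDF1 and HNRNPC, and the METTL3 shRNA group lies below the control group for 6 genes and above it for IGF2BP2 and IGF2BP3.

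YTHDF2, the paralog that brings the CCR4-NOT deadenylase to methylated mRNA, had 115, 113 and 109.6 CPM in the controls and 90.03, 93.0 and 94.8 CPM in the METTL3 shRNA libraries. The groups were well apart, and the spread was small in both (SD 2.54 and 2.41 CPM, n = 3 each). Its log2 fold change was −0.28 (SE 0.07, edgeR adjusted p = 0.00926), and it passed in all 17 alternative analyses. The gene lies at chr1:28736621-28769775 on the plus strand of GRCh38.

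YTHDF1, described as a promoter of translation as well as of decay, had 94.2, 92.9 and 104 CPM in the controls and 84.6, 84.4 and 101 CPM in the METTL3 shRNA libraries. METTL3 shRNA library C lay inside the control range, and the other two lay below it. The log2 fold change of −0.11 (SE 0.09, edgeR adjusted p = 0.363) did not pass, and the range of ±2 SE ran from −0.29 to 0.07. YTHDF1 lies at chr20:63195429-63216234 on the minus strand.

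YTHDF3, which works with both of its paralogs, had 128, 129 and 124 CPM in the controls and 93.3, 108 and 120.04 CPM in METTL3 shRNA libraries A, B and C. All 3 METTL3 shRNA libraries were below all controls, but they spread over 12.5% of their mean (coefficient of variation) against 2.001% in the controls. Its log2 fold change of −0.24 (SE 0.09) missed the threshold (edgeR adjusted p = 0.0526). Of the 6 fits without 1 library it passed in 1, that without METTL3 shRNA library C (−0.33, edgeR adjusted p = 0.00980). The value without METTL3 shRNA library A was −0.16 (edgeR adjusted p = 0.158), and the other 4 fits gave an adjusted p from 0.0806 to 0.135. Over all 17 alternatives it passed in 10, DESeq2 with all 6 libraries (adjusted p = 0.0332) among them.

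YTHDC1, the nuclear YTH protein, had 100.1, 95.8 and 113 CPM in the controls and 79.5, 80.03 and 94.7 CPM in the METTL3 shRNA libraries, with a log2 fold change of −0.28 (SE 0.09, edgeR adjusted p = 0.0302). The gap between the groups was narrow, from 94.7 to 95.8 CPM. This call was lost in the fits without METTL3 shRNA library A (edgeR adjusted p = 0.0943) or B (0.117), or without control library A (0.0503) or C (0.129), where the value ran from −0.30 to −0.21. YTHDC2, the helicase, was the lowest member by CPM, with 22.8, 24.5 and 24.04 in the controls and 17.3, 17.7 and 21.1 in the METTL3 shRNA libraries. Every METTL3 shRNA library lay below the controls, by −0.35 (SE 0.09) on the log2 scale (edgeR adjusted p = 0.0101), and that call was lost without METTL3 shRNA library B (−0.31, edgeR adjusted p = 0.0515). YTHDC1 lies at chr4:68310387-68350089 on the minus strand and YTHDC2 at chr5:113513683-113595285 on the plus strand. In all 5 YTH genes, METTL3 shRNA library C had the highest value of its group, by 0.03 to 0.18 above the group mean on the log2 scale.

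IGF2BP2, a stabiliser of methylated mRNA, had 52.4, 44.8 and 43.1 CPM in the controls and 60.01, 73.9 and 56.7 CPM in the METTL3 shRNA libraries. Its log2 fold change was 0.44 (SE 0.11, edgeR adjusted p = 0.00654), and METTL3 shRNA library B stood above the other two. The call held in each of the 6 fits without 1 library, with values from 0.32 to 0.53. IGF2BP3, a paralog that is mostly fetal in normal tissue, had 55.04, 55.3 and 45.9 CPM in the controls and 58.7, 69.2 and 59.1 CPM in the METTL3 shRNA libraries. Its groups did not overlap, with a gap from 55.3 to 58.7 CPM, and it rose by 0.26 (SE 0.09, edgeR adjusted p = 0.0484). That call passed in only 1 of the 6 fits without 1 library, the one without METTL3 shRNA library C, with adjusted p from 0.0560 to 0.207 in the others, and values from 0.17 to 0.30 over the 6. With library size scaling, which shifts the median of all genes to −0.11, IGF2BP3 stood at 0.15 (edgeR adjusted p = 0.221). IGF2BP1, the remaining paralog, was not tested, as no library held more than 5 counts of it. IGF2BP2 lies at chr3:185643739-185825056 and IGF2BP3 at chr7:23310209-23470467, both on the minus strand. IGF2BP2-AS1, an antisense gene by its symbol, had at most 3 counts, and MALSU1, whose exons overlap those of IGF2BP3 on the other strand, had a log2 fold change of 0.07 (SE 0.09, edgeR adjusted p = 0.621).

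FMR1 had 27.8, 29.2 and 27.7 CPM in the controls and 21.6, 24.4 and 23.1 CPM in the METTL3 shRNA libraries, and all of the latter were lower. Its log2 fold change was −0.29 (SE 0.08, edgeR adjusted p = 0.0107), a call that was just lost without control library B (−0.27, edgeR adjusted p = 0.0507). The gene lies at chrX:147911951-147951125 on the plus strand, and FMR1-AS1 and FMR1-IT1 had at most 1 count. Of its autosomal paralogs, FXR2 fell (−0.29, SE 0.08, edgeR adjusted p = 0.0104), and FXR1 did not pass and stood at 0.14 (SE 0.07, edgeR adjusted p = 0.162). The call of FXR2, which overlaps MPDU1 on the other strand, was lost without METTL3 shRNA library B (edgeR adjusted p = 0.0507).

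HNRNPA2B1 had 264, 265 and 239.7 CPM in the controls and 208, 206 and 191 CPM in the METTL3 shRNA libraries. The groups were apart, and it fell in all 17 alternative analyses (−0.35 on the log2 scale, SE 0.08, edgeR adjusted p = 0.00508). HNRNPA2B1 lies at chr7:26173057-26201529 on the minus strand, and its exons overlap those of CBX3 on the other strand. CBX3 did not pass the test (0.09, SE 0.08, edgeR adjusted p = 0.447), with 12665 to 14278 counts in a library. HNRNPC, which binds U-rich stretches that m6A makes accessible, had 661, 689 and 704 CPM in the controls and 737, 659 and 722 CPM in the METTL3 shRNA libraries. The groups overlapped, and the log2 fold change of 0.04 (SE 0.08, edgeR adjusted p = 0.726) had a range of ±2 SE from −0.13 to 0.21. With library size scaling the value was −0.07, so its sign rested on the scaling. HNRNPC lies at chr14:21209136-21269494 on the minus strand.

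The changes of the readers were moderate within the table. The log2 fold change of HNRNPA2B1, the lowest of the 10, had 16.8% of all genes tested below it, and that of IGF2BP2, the highest, had 85.7% below it. Groups did not overlap for 8 of the 10 readers, against 47.4% of all genes tested and 52.7% of genes with at least 20 CPM.

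The deposited FPKM values, which are per transcript length and so allow genes to be compared, gave a second reading of the same libraries. In the controls the order was HNRNPC (675 ± 46.5 FPKM, SD, n = 3), HNRNPA2B1 (124 ± 1.45), YTHDF2 (49.6 ± 0.38), YTHDC1 (47.2 ± 4.37), YTHDF1 (34.9 ± 3.40), YTHDF3 (31.1 ± 1.66), IGF2BP3 (19.3 ± 2.13), IGF2BP2 (18.6 ± 1.23), FMR1 (7.96 ± 0.060) and YTHDC2 (4.36 ± 0.29). YTHDF2 and YTHDC1 overlapped in their ranges, as did IGF2BP3 and IGF2BP2, and all other neighbours were apart. In the METTL3 shRNA libraries the ranges overlapped from YTHDF2 down to IGF2BP3, neighbour by neighbour, and IGF2BP2 (23.7 ± 4.15 FPKM) stood beside YTHDF3 (23.5 ± 3.64). The level of HNRNPC rests on a short length: count and FPKM together imply 1053 bases, where the transcript chosen from GENCODE has 1714. Implied and chosen lengths also differed for YTHDC1 (2261 and 3244 bases), IGF2BP2 (2599 and 3688) and IGF2BP3 (2907 and 4250). The implied length was again the shorter one for YTHDF1 (2849 and 3301), YTHDF2 (2369 and 2925), FMR1 (3734 and 4308) and YTHDC2 (5706 and 6316). For YTHDF3 (4316 and 2370) and HNRNPA2B1 (2206 and 1711) the implied length was the longer one. The order of the readers by FPKM, and shares of summed FPKM, rest on these lengths.

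By limma on log2(FPKM + 1), 6 readers fell and 1 rose, where 35.3% of the 15046 genes tested were called, 24.8% lower and 10.6% higher. Fold changes on this scale understate changes of low genes, and the median of all genes was −0.09. HNRNPA2B1 went from 123, 126 and 124 to 86.7, 84.3 and 84.8 FPKM, a change of −0.54 (SE 0.06, limma adjusted p = 0.000681) that exceeds the one from counts. The length implied for HNRNPA2B1 was 2164, 2184 and 2075 bases in the controls and 2250, 2339 and 2223 in the METTL3 shRNA libraries, so the libraries did not overlap in this either. IGF2BP3 had 19.6, 21.2 and 17.0 FPKM in the controls and 18.0, 21.0 and 21.1 FPKM in the METTL3 shRNA libraries, which overlap, and its change of 0.05 (SE 0.10, limma adjusted p = 0.684) did not pass. The length implied for IGF2BP3 was 2833, 2714 and 2895 bases in the controls and 3068, 3169 and 2761 in the METTL3 shRNA libraries, longer in libraries A and B. The rise of IGF2BP3 passed the test by TMM-scaled counts and not by FPKM, to which no TMM scaling was applied. Counts with library size scaling gave 0.15 for IGF2BP3 (edgeR adjusted p = 0.221) and −0.46 for HNRNPA2B1. The parts of length and of scaling in these differences were not tested.

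**Figure D2:**
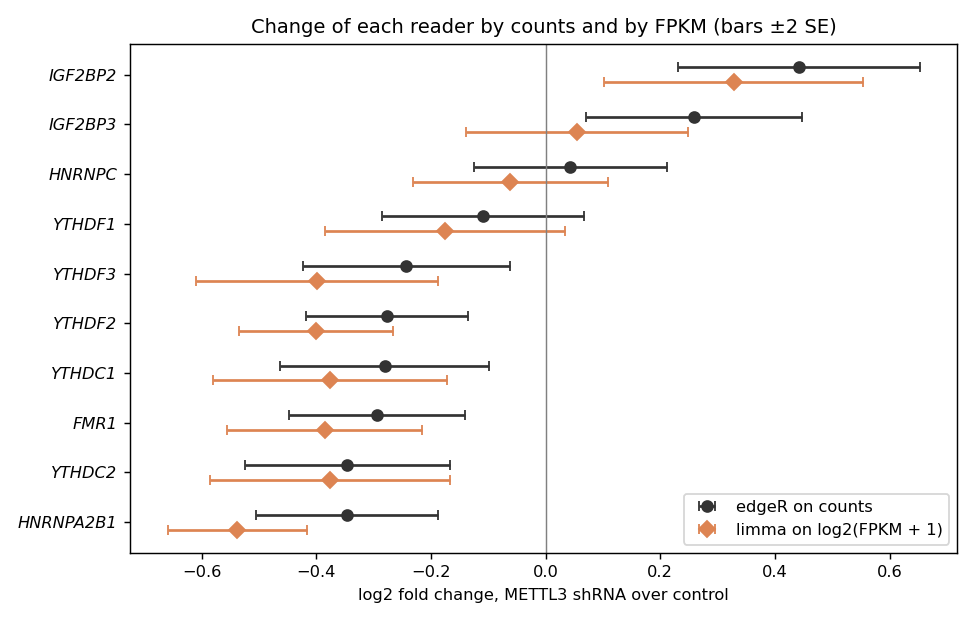
Log2 fold change of each reader (METTL3 shRNA over control, horizontal axis) from counts by edgeR (black circles) and from log2(FPKM + 1) by limma (orange diamonds), with bars of ±2 SE. The bars of IGF2BP2 lie above 0 by both, those of HNRNPC and YTHDF1 cross 0 by both, the bar of IGF2BP3 lies above 0 by counts and crosses 0 by FPKM, and HNRNPA2B1 is lowest by FPKM at −0.54.

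Ratios of related genes within a library are nearly free of the scaling between libraries, and 8 pairs, taken from log2(FPKM + 1), were compared by a two-sided exact permutation test, in which 3 against 3 libraries cannot give a p below 0.1. The log2 ratio of HNRNPC to HNRNPA2B1 was 2.36, 2.39 and 2.54 in the controls and 2.93, 2.82 and 2.97 in the METTL3 shRNA libraries. It was higher in each of the latter by 0.48 on average (exact permutation p = 0.1, adjusted over the 8 pairs 0.267). The ratio of FMR1 to FXR1 was lower in all 3 METTL3 shRNA libraries by a mean difference of −0.39, and that of IGF2BP3 to IGF2BP2 by −0.27 (exact permutation p = 0.1 each, adjusted 0.267). FMR1 relative to FXR2 differed by only −0.075, with overlapping libraries (exact permutation p = 0.6, adjusted 0.8). The IGF2BP3 to IGF2BP2 difference was −0.18 without METTL3 shRNA library B, and also −0.18 from CPM in place of FPKM. YTHDF2 relative to YTHDF1 differed by −0.22 with overlapping libraries (exact permutation p = 0.2, adjusted 0.32). YTHDC2 relative to YTHDC1 stayed between −3.25 and −3.09 in all 6 libraries, and YTHDF3 relative to YTHDF2 had means of −0.66 and −0.65 in the control and METTL3 shRNA groups. The YTHDC2 to YTHDC1 difference was −0.00055 on this scale, −0.084 from log2(FPKM + 0.1) and −0.069 from CPM.

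**Figure D3:**
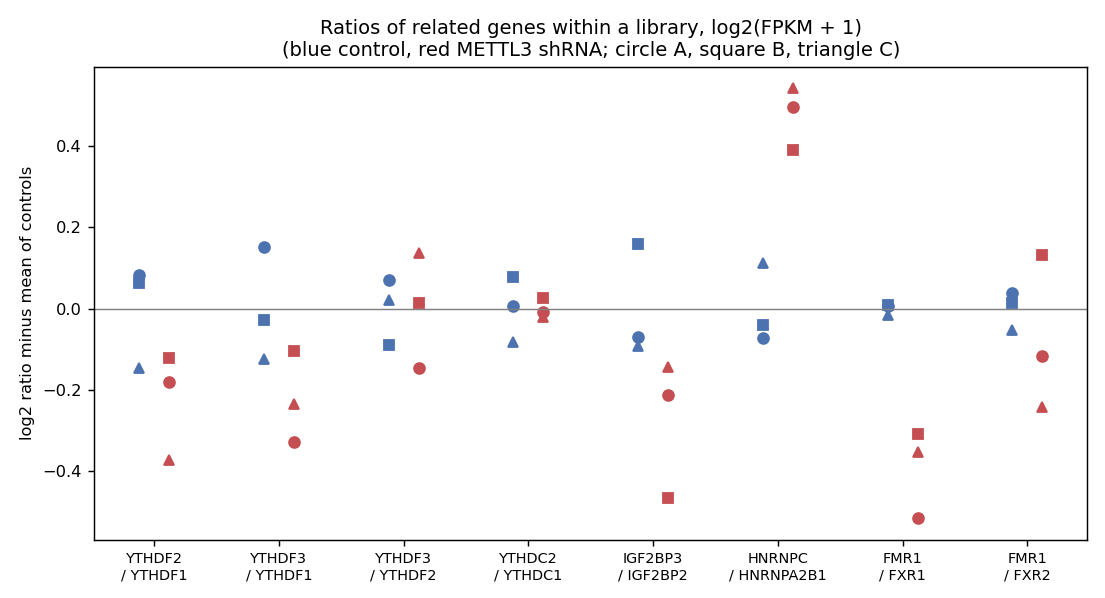
Log2 ratio of 2 related genes in each library, from log2(FPKM + 1), minus the mean of the control libraries (vertical axis), with controls in blue, METTL3 shRNA in red and the libraries A, B and C as circle, square and triangle. The groups are apart for HNRNPC over HNRNPA2B1, IGF2BP3 over IGF2BP2 and FMR1 over FXR1, and they overlap for the other 5 pairs.

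The 3 YTHDF genes summed to 114, 112 and 120.4 FPKM in the controls and 83.1, 90.3 and 102 FPKM in the METTL3 shRNA libraries (exact permutation p = 0.1, the smallest possible). Within that sum YTHDF2 held 42.9% ± 1.43 in the controls and 40.8% ± 2.14 in the METTL3 shRNA libraries (SD, n = 3 each), and YTHDF1 held 30.2% ± 1.89 and 33.6% ± 1.62. The two-sided exact permutation test of the shares gave p = 0.3 and p = 0.2. Every METTL3 shRNA library was below every control in the sum, and the groups overlapped in both shares. No TMM scaling was applied to these sums, and by limma on log2(FPKM + 1) the median of all genes was −0.09. By TMM-scaled counts YTHDF2 fell, while YTHDF1 and YTHDF3 did not pass.

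Promoter sequence is shown for 2 readers that fell, picked after their values were seen, and for the 2 that rose, to set members that moved in opposite directions side by side. Each line holds the 250 bases before the RefSeq start (GRCh38.p14), 5′ to 3′ on the gene's strand. Capitals mark matches on either strand to the motifs searched: the NRF1 motif, CCGGAAGT (ETS factors), GGGCGG (SP1), CCAAT (NF-Y), CACGTG (E-box) and AAGATGGCG (YY1), which may overlap one another. The positions are chr4:68350091-68350340 on the minus strand for YTHDC1, chrX:147911669-147911918 on the plus strand for FMR1, chr3:185825043-185825292 on the minus strand for IGF2BP2 (1 of its 2 listed starts) and chr7:23470492-23470741 on the minus strand for IGF2BP3.
YTHDC1: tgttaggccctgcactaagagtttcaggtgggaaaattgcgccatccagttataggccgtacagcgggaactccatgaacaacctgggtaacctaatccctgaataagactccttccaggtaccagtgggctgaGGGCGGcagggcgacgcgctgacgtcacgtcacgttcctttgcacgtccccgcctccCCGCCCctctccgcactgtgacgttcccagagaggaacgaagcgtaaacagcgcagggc
FMR1: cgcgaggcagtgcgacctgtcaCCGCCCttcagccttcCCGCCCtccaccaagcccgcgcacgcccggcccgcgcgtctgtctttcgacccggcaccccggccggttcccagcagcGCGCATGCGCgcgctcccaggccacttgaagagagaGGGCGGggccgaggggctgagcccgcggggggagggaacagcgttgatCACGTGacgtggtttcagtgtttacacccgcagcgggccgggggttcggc
IGF2BP2: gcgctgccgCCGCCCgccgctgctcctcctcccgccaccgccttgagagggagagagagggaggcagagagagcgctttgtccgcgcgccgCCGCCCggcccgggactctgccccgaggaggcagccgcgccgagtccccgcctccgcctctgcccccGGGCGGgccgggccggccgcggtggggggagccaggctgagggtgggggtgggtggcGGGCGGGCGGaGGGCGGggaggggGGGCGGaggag
IGF2BP3: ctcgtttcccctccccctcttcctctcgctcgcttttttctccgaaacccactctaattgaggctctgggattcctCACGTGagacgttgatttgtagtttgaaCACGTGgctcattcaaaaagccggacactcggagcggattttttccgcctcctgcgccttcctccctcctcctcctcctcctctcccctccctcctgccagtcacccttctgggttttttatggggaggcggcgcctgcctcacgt
The IGF2BP2 window shown is 81.6% G and C with 7 GGGCGG matches, and the IGF2BP3 window is 56.8% G and C with 2 CACGTG matches and none of the others. The window of the other IGF2BP2 start, not shown, is 32.8% G and C with 1 CCAAT match and no GGGCGG. The median over all promoter windows is 58.0% G and C. YTHDC1 has 2 GGGCGG matches, and FMR1 has 3 besides 1 match each to the NRF1 motif and CACGTG. Of 35116 RefSeq promoter windows of this length, 42.6% hold GGGCGG, 6.34% CACGTG and 5.07% the NRF1 motif, while 3.42% hold CCGGAAGT, 0.652% AAGATGGCG, and 11240 of the 35116 windows hold CCAAT. RefSeq entries were found for 9 of the 10 members, and a match here is a match of letters only.

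The other genes of the m6A pathway and the known partners of the readers moved in both directions. Their list counts stand against the background of 16.9% lower and 16.5% higher over all genes tested. Among genes that average at least 20 CPM, as most of the list genes do, the background was 21.4% lower and 18.2% higher. Of 11 other reported readers tested, 2 fell and 0 rose, with a list median of −0.02: FXR2, given above, and LRPPRC, which binds mitochondrial mRNA (−0.28, SE 0.07, edgeR adjusted p = 0.00859). The HuR gene ELAVL1, PRRC2A, RBMX, the stress granule genes G3BP1 and G3BP2, SND1, EIF3A and EIF3H did not pass. Of 8 other writer genes, METTL14 and WTAP fell and 6 did not pass (median −0.09), and of the 2 demethylases ALKBH5 rose (0.24, SE 0.07, edgeR adjusted p = 0.0246) while FTO did not pass. The METTL14 call was lost in 3 of the 6 fits without 1 library (METTL3 shRNA A and B, control B), that of WTAP in 1 (METTL3 shRNA B, edgeR adjusted p = 0.0537), and that of ALKBH5 in 3 (METTL3 shRNA B, control A and control B) and with library size scaling.

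Of 5 partners of YTHDC1 in splicing and export, 3 fell, 0 rose and 2 did not pass (median −0.25). The mRNA export receptor NXF1 fell from 69.3 ± 4.10 to 47.1 ± 2.91 CPM (SD, n = 3 each; log2 fold change −0.56, SE 0.08, edgeR adjusted p = 0.000284), and the splicing factor SRSF10 from 109 ± 3.99 to 88.5 ± 4.27 CPM (−0.30, SE 0.07, edgeR adjusted p = 0.00777). Both calls held in all 17 alternatives. SRSF7 fell as well (−0.25, SE 0.08), but its call held in only 1 of the 6 fits without 1 library, the one without METTL3 shRNA library C, and SRSF3 and CPSF6 did not pass.

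Of 15 tested genes of CCR4-NOT and of the other decay factors that YTHDF2 or YTHDC2 bind, 3 fell, 2 rose and 10 did not pass (median −0.0092). Within the deadenylase complex CNOT9 fell from 64.0 ± 0.87 to 48.6 ± 0.38 CPM (SD, n = 3 each; −0.40, SE 0.07, edgeR adjusted p = 0.00103), and the catalytic subunit CNOT8 rose from 38.5 ± 2.16 to 50.0 ± 3.17 CPM (0.38, SE 0.08, edgeR adjusted p = 0.00306). Both held in all 17 alternatives, although CNOT8 overlaps FAXDC2 on the other strand. The scaffold CNOT1, which contacts YTHDF2, stood at −0.0092 (SE 0.09). CNOT10 and RIDA, a bridge from YTHDF2 to endonucleolytic cleavage, fell, and CNOT11 rose. The CNOT10 call was lost without METTL3 shRNA library B or control library C, the RIDA call without METTL3 shRNA library B, and the CNOT11 call in all 6 fits without 1 library. With library size scaling the CNOT11 call was lost as well (edgeR adjusted p = 0.338).

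Of 4 partners of FMR1, NUFIP1 (−0.30, SE 0.09) and NUFIP2 (−0.35, SE 0.11) fell and CYFIP1 and CYFIP2 did not pass. The NUFIP1 call was lost without METTL3 shRNA library B, control library A or control library B, and the NUFIP2 call without METTL3 shRNA library A or B or control library B or C. Among 7 relatives and partners of the hnRNP members, HNRNPA3 rose from 72.5 ± 8.37 to 107 ± 7.42 CPM (SD, n = 3 each; 0.56, SE 0.09, edgeR adjusted p = 0.000785), and HNRNPAB fell (−0.23, SE 0.08, a call held in 1 of the 6 fits without 1 library, that without METTL3 shRNA library A). HNRNPA1, HNRNPA0, RALY and the microprocessor genes DROSHA and DGCR8 did not pass. PABPC1, the poly(A)-binding partner of the IGF2BP proteins, rose from 1778 ± 56.1 to 2580 ± 173 CPM (0.54, SE 0.09, edgeR adjusted p = 0.000881). By limma on log2(FPKM + 1) with the filter, 4 of the list calls were already lost. They were METTL14 (limma adjusted p = 0.107), ALKBH5 (0.111), NUFIP2 (0.137) and CNOT11 (0.155). In the limma fit of FPKM without a filter on low values, the calls of PABPC1, HNRNPA3, FXR2, RIDA, CNOT10, CNOT11, NUFIP1, NUFIP2, METTL14 and ALKBH5 were lost. As with FXR2 and CNOT8, exons of other called genes overlap a gene on the other strand. These genes are WTAP (SOD2), ALKBH5 (AC087164.1), CNOT10 (CNOT10-AS1), CNOT11 (TBC1D8), HNRNPA3 (AC079305.3) and HNRNPAB (PHYKPL).

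**Figure D4:**
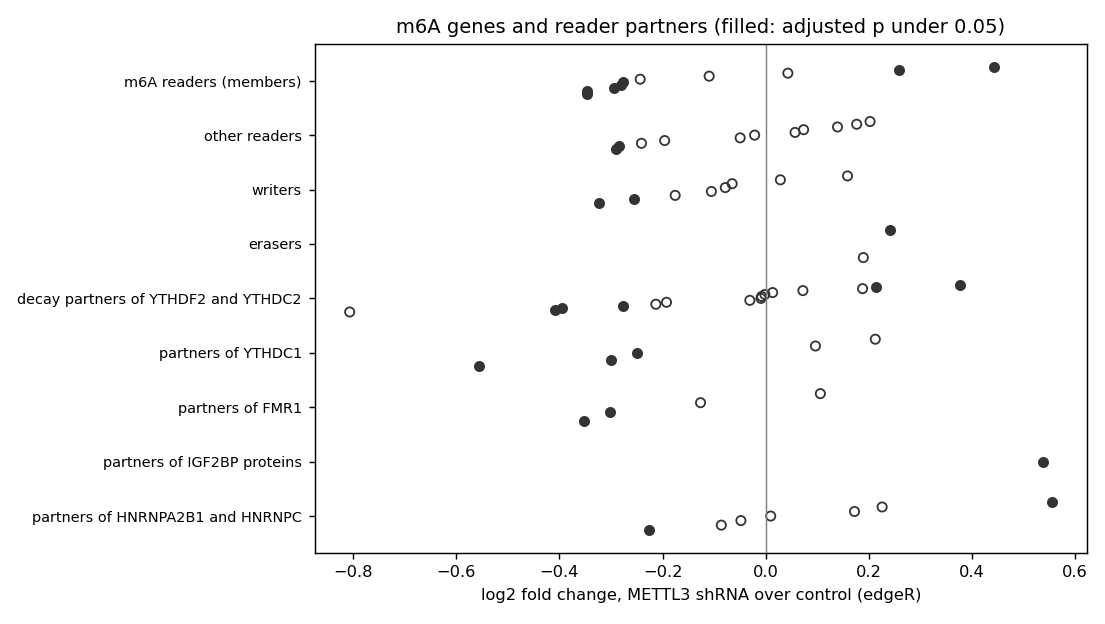
Log2 fold change (edgeR, horizontal axis) of the genes tested in each list, one point a gene, filled where the adjusted p is under 0.05 and ordered by value within a list. The readers hold 5 filled points below 0 and 2 above, and the partners of YTHDC1 hold 3 below and 0 above.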

How the data were processed

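RNA of 6 libraries was measured, 3 per group. The authors deposited whole-number counts per gene and FPKM values (fragments scaled by transcript length and library total), and STAR 2.7.10b, Salmon and GRCh38 appear, per the submitters' processing notes, without their steps. The sources used here state neither strand use nor annotation release. The 3 columns named for the control shRNA were taken as controls, and the other 3, which carry a number that no label explains, as METTL3 shRNA by elimination. No label links a column letter to a replicate number.

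Counts of all 61860 rows were filtered by filterByExpr (18740 genes left) and TMM-scaled, and edgeR 4.0.16 gave a quasi-likelihood test (R 4.3.3), with Benjamini-Hochberg adjustment at 0.05. SE came from the F statistic. The procedure was tested on simulated data in which 200 genes, drawn from all genes tested, were changed. It found 12% of the genes changed 1.25-fold, 54% at 1.5-fold and 90% at 2-fold, and 4.69% of its calls were false. In the deposited data 33.5% of the genes tested were called, a far larger share than was changed in the simulation. The p-value that passes after adjustment depends on that share, so the simulated rates do not carry over to this comparison. A gene that did not pass may still have changed by a small amount. FPKM was tested with limma 3.58.1 on log2(FPKM + 1) for genes of at least 0.5 FPKM in 3 libraries. Implied length is count divided by FPKM and by the library total, with each library centred on its median gene. Replicate libraries differed beyond sampling noise (chi-square over its degrees of freedom, 16.5 to 62.8). The alternatives were other scalings, filters, pseudocounts and tests (DESeq2 1.42.0, limma-voom), leaving out mitochondrial transcripts, the column letter as a block, and leaving out each library. Named genes are the members, METTL3 and lists of other m6A genes, partners, pseudogenes and cell markers. CBX3, MALSU1 and genes named only as overlapping were added from the annotation. MATR3 stands on more than 1 row and was left out. Members and lists were chosen with earlier results of these data known. Positions came from GENCODE 29.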

Additional observations from a re-analysis of the deposited data

How the results depend on the processing

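Over all genes, library size scaling gave 1985 higher and 4727 lower, limma on log2(FPKM + 1) 1588 and 3730, and the fit without METTL3 shRNA library B 2053 and 1959, against 3099 and 3171. The number of readers lower was 3 to 6 and the number higher 1 to 2 when 1 library at a time was left out, with 3 lower without METTL3 shRNA library B, and the median log2 fold change of the readers ran from −0.29 to −0.20. With library size scaling 1 reader rose (median −0.37), with limma on log2(FPKM + 1) 1 rose (median −0.38), and with limma on log2(FPKM + 0.1) 1 rose (median −0.40). Without the filter on FPKM, 0 rose and 3 fell (median −0.38), where more low genes entered the test. HNRNPC changed sign with library size scaling (−0.069) and in the 3 FPKM fits (−0.061 with a pseudocount of 1, with or without the filter, and −0.062 with 0.1). No other reader changed sign, and YTHDF2 and HNRNPA2B1 passed in all 17 alternatives.

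With the column letter as a replicate block, 2 readers rose and 6 fell, YTHDF3 being added (−0.25, edgeR adjusted p = 0.0291). Over all genes the block gave 3421 higher and 3564 lower, against 3099 and 3171 without it. Deviations of libraries with the same letter correlated at −0.02, −0.05 and 0.17. With 3 libraries per group, such values cannot tell whether the letters mark a shared batch or only a name. Not every library correlated best with its own letter.

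Leaving out 1 library moved the ratio of YTHDF3 to YTHDF2 between −0.066 and 0.075, that of YTHDC2 to YTHDC1 between −0.042 and 0.038 and that of FMR1 to FXR2 between −0.18 and 0.0080. With log2(FPKM + 0.1) the ratio of YTHDF3 to YTHDF2 was −0.0038. The other ratios and shares kept their sign. The readers had at least 1634 counts in every library.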
